A study of Mus musculus with 12 samples.

Results

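The pentose phosphate pathway enzymes are encoded by 8 genes, taken by name as rows of the deposited table of 43629 Ensembl gene identifiers. Of these, 4 belong to the oxidative branch (G6pdx, H6pd, Pgls and Pgd) and 4 to the non-oxidative branch (Rpia, Rpe, Tkt and Taldo1). Each of the 8 symbols matched 1 identifier, and all 8 passed the filter on low counts. Poly(A) RNA of mouse cortical neuronal cultures was counted per gene in 12 libraries, 6 labelled IFNG (treatment IFNy) and 6 labelled Control. The labels describe the IFNG cultures as overexpressing Ifng, the gene of interferon-gamma, a cytokine of T cells and natural killer cells, from a lentivirus. Transduction took place at 7 days in vitro, and the cells were collected 10 days later. Every sample carries the same protocol text, so what the Control cultures received is not stated. The construct's promoter, the cells it entered, and the strain, sex and age of the animals are not stated either, nor whether replicates were cultured separately.

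The pathway branches off glycolysis at glucose 6-phosphate. Its oxidative branch makes NADPH, the reducing power for glutathione recycling and lipid synthesis, in steps that cannot run backwards. Its non-oxidative branch interconverts sugar phosphates reversibly, supplies ribose for nucleotides and returns carbon to glycolysis. In brain, neurons are known for a reliance on this route to keep glutathione reduced, and astrocytes also run it and regulate it through the factor NRF2.

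Ifng had 0 to 3 counts in each Control library and 92 to 421 in each IFNG library. Library totals ran from 13875435 to 34239380 counts. Of 15241 genes tested, 2184 (14.3%) were higher and 1492 (9.79%) were lower in IFNG than in Control by edgeR's quasi-likelihood test at a Benjamini-Hochberg adjusted p under 0.05. The neuronal label was checked against 18 neuronal markers, all of which had enough counts to be tested. Their summed level was 6653 to 7363 CPM (a gene's count as a rate on the scaled library total) in Control and 5116 to 6362 CPM in IFNG libraries, and 6 of the 18 fell while none rose. The cultures also held RNA of astrocyte marker genes. All 16 tested of 18 astrocyte markers rose, and their summed level was 3590 to 4303 CPM in Control against 6655 to 12490 CPM in IFNG libraries. The remaining pair was too low to be tested: S100b had 55 counts over the Control and 55 over the IFNG libraries, and Gjb6 had 12 and 0. Of 14 microglial and macrophage markers only 3 could be tested, P2ry12 rose, and the summed level was 9.25 to 18.0 CPM in Control against 14.6 to 23.4 CPM in IFNG libraries. The defining microglial gene Tmem119 had 0 counts in Control and 3 in IFNG libraries. Of 10 oligodendrocyte lineage markers 9 were tested, 1 rose and 2 fell. Of 9 endothelial and mural markers 4 were tested and 2 rose, with the endothelial gene Cldn5 at 0 counts throughout. The risers were Ly6c1, with 1 count over the Control and 310 over the IFNG libraries, and Pdgfrb, whose groups overlapped. Of 7 fibroblast markers 5 were tested and 2 rose: Igf2, with 8 and 364 counts, and Fn1, whose groups overlapped. Of 8 markers of dividing cells 2 fell. The part of these marker changes in the results for the pathway was not tested. In bulk RNA, a change in the number of cells of a type and a change in RNA per cell cannot be told apart.

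The bases before the RefSeq start site are shown for G6pdx, the member with the smallest p, and for Tkt, the only non-oxidative member that passed the test (build GRCm38.p6, read 5′ to 3′ on the gene's strand). Capitals mark a match to the core of the antioxidant response element, TGACNNNGC, the kind of element bound by NRF2. The G6pdx stretch is chrX:74428881-74429130 on the minus strand and the Tkt stretch is chr14:30548881-30549130 on the plus strand.
G6pdx: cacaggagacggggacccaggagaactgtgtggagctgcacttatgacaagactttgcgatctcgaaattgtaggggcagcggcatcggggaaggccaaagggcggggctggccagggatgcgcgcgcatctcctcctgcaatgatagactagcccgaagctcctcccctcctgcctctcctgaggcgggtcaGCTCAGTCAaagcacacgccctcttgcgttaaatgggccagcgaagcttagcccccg
Tkt: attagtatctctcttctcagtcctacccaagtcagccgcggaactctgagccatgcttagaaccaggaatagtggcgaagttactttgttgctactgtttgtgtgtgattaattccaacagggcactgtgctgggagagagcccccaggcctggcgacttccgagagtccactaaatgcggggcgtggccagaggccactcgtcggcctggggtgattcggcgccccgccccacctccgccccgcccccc
The G6pdx match lies on the opposite strand and begins at position -57, counted from the base before the start site as -1. The windows searched on both strands ran from 250 bases before to 50 bases after each RefSeq start site. All 8 members had a window, and Pgd had a second one. The antioxidant response element core was found in 2 of the 8 members, G6pdx and Pgd, and in 14.0% of 27025 genes with such windows. The Pgd match began at position 4 of the start site that lies 689 bases inside the GENCODE gene, and its window nearer the gene's outer end held none. The E-box CACGTG was in no member's window and in 8.09% of genes. A match is a description of letters, and its absence covers these windows only. The RefSeq start site lies 314 bases inside the GENCODE gene for G6pdx, 772 bases for Tkt and 5787 bases for H6pd, so both printed stretches fall within the annotated gene.

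Of the 8 pathway genes, 4 rose in IFNG cultures (G6pdx, H6pd, Pgd and Tkt), none fell, and 4 did not pass the test. This compares with 14.3% of all tested genes called higher and 9.79% called lower. The median log2 fold change was 0.27 over the 8 members, 0.41 over the oxidative and 0.20 over the non-oxidative branch, and -0.02 over all tested genes. In the oxidative branch 3 of 4 members rose, and in the non-oxidative branch 1 of 4. G6pdx was the only member whose IFNG libraries all lay above all Control libraries, a pattern that 8.75% of all tested genes showed. On library totals without a composition factor only G6pdx was called, and on totals that leave out the genes called higher Taldo1 passed as well. Those genes were taken from the main test of these data, which raises the estimates on that scaling by construction. Without Control 4 and IFNG 5 together, libraries that earlier results showed standing apart, G6pdx and H6pd were called and Pgd (adjusted p = 0.0522, edgeR) and Tkt (0.0641) were not.

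**Figure D1:**
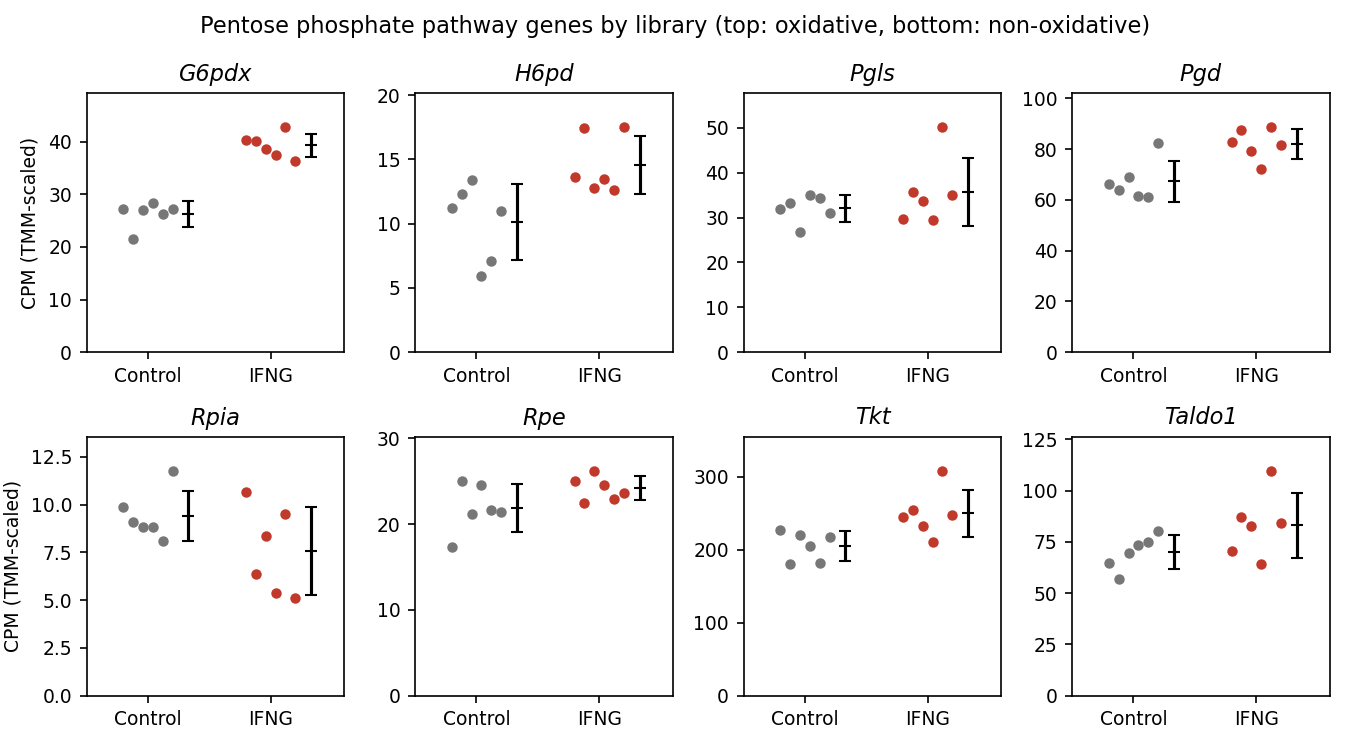
CPM of each pathway gene (TMM-scaled, y axes starting at 0) in the 6 Control (grey) and 6 IFNG (red) libraries in order of replicate number, with mean and SD as black bars. The groups are apart for G6pdx, where IFNG libraries sit at 36.3 to 42.8 CPM and Control libraries at 21.6 to 28.3 CPM, and they overlap for the other 7 genes.

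The gene of the first and rate-limiting enzyme moved most clearly. G6pdx encodes glucose-6-phosphate dehydrogenase, which commits glucose 6-phosphate to the pathway and makes its first NADPH. It stood at 21.6, 27.1 and 28.3 CPM (lowest, median and highest) in Control and at 36.3, 39.4 and 42.8 CPM in IFNG libraries. Every IFNG library was therefore higher than every Control library, and among Control libraries replicate 2 was the low one. The means were 26.3 ± 2.41 and 39.3 ± 2.27 CPM (SD, n = 6 each), and the log2 fold change was 0.58 ± 0.096 (SE), or 1.496-fold with a 95% interval of 1.30 to 1.72 (adjusted p = 0.000125, edgeR). Its call was kept in each of 21 alternatives, with log2 fold changes from 0.53 to 0.69. G6pdx (ENSMUSG00000031400) spans 74409483 to 74429194 on the minus strand of chromosome X in GRCm38. Its exons share 418 bases, 13.6% of their length, with Ikbkg on the opposite strand, and without the strand setting reads of that stretch are uncertain. Ikbkg, a regulatory subunit of the kinase complex that activates NF-kB, stood at 40.5 ± 3.26 CPM in Control against 44.7 ± 5.66 CPM in IFNG (SD, n = 6 each; adjusted p = 0.332, edgeR). The autosomal copy G6pd2 had 1 count over the Control and 4 over the IFNG libraries.

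H6pd encodes the enzyme that carries out the first oxidative steps inside the endoplasmic reticulum, where its NADPH serves steroid reductases. Control libraries ran from 5.93 through a median of 11.1 to 13.4 CPM, and IFNG libraries from 12.6 through 13.6 to 17.5 CPM. The groups overlapped through Control 3, and Control 4 and Control 5 were the lowest, at 5.93 and 7.12 CPM. H6pd rose by 0.53 ± 0.18 on the log2 scale, from 10.1 ± 2.96 to 14.6 ± 2.28 CPM (SD, n = 6 each; adjusted p = 0.0425, edgeR). The call was lost without any 1 of Control 1, 4, 5 or 6 or IFNG 1, 2, 4 or 6, with adjusted p from 0.0505 to 0.1004 and log2 fold changes from 0.42 to 0.56. It was also lost on library totals without a composition factor (0.48, adjusted p = 0.0615). H6pd (ENSMUSG00000028980) spans 149979475 to 150009023 on the minus strand of chromosome 4.

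Pgls encodes the lactonase that opens the ring of the first product. It stood at 26.8, 32.7 and 35.0 CPM in Control, against 29.5, 34.3 and 50.1 CPM in IFNG libraries (lowest, median, highest). The groups overlapped, and IFNG 5 lay above the rest, whose highest value was 35.7 CPM. The log2 fold change of 0.15 ± 0.13 did not pass (adjusted p = 0.416, edgeR), and its 95% interval was 0.927 to 1.33-fold. Without IFNG 5 it was 0.04 (adjusted p = 0.824). Pgls (ENSMUSG00000031807) lies on the plus strand of chromosome 8 from 71592176 to 71601092 and shares 776 exon bases, 20.6% of its exon length, with Fam129c on the same strand, a gene at 4.42 ± 1.20 CPM in Control against 6.09 ± 2.06 CPM in IFNG (SD, n = 6 each).

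Pgd encodes phosphogluconate dehydrogenase, which makes the second NADPH of the branch and releases carbon dioxide. Control libraries held 61.0 to 82.5 CPM with a median of 65.1, and IFNG libraries held 72.4 to 88.6 CPM with a median of 82.3. Control 6, at 82.5 CPM, reached into the IFNG range, and the other 5 Control libraries were below every IFNG library. Pgd rose by 0.29 ± 0.092 on the log2 scale, or 1.22-fold, from 67.3 ± 8.01 to 82.1 ± 5.98 CPM (SD, n = 6 each; adjusted p = 0.0278, edgeR). The call was lost without any 1 of Control 1, Control 2, Control 5 or IFNG 2, with adjusted p from 0.0548 to 0.0632 and log2 fold changes of 0.27 to 0.28. On library totals without a composition factor it stood at 0.24 (adjusted p = 0.0638), and without Control 4 and IFNG 5 together at 0.25 (adjusted p = 0.0522, edgeR). Pgd (ENSMUSG00000028961) spans 149149991 to 149166771 on the minus strand of chromosome 4.

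**Figure D2:**
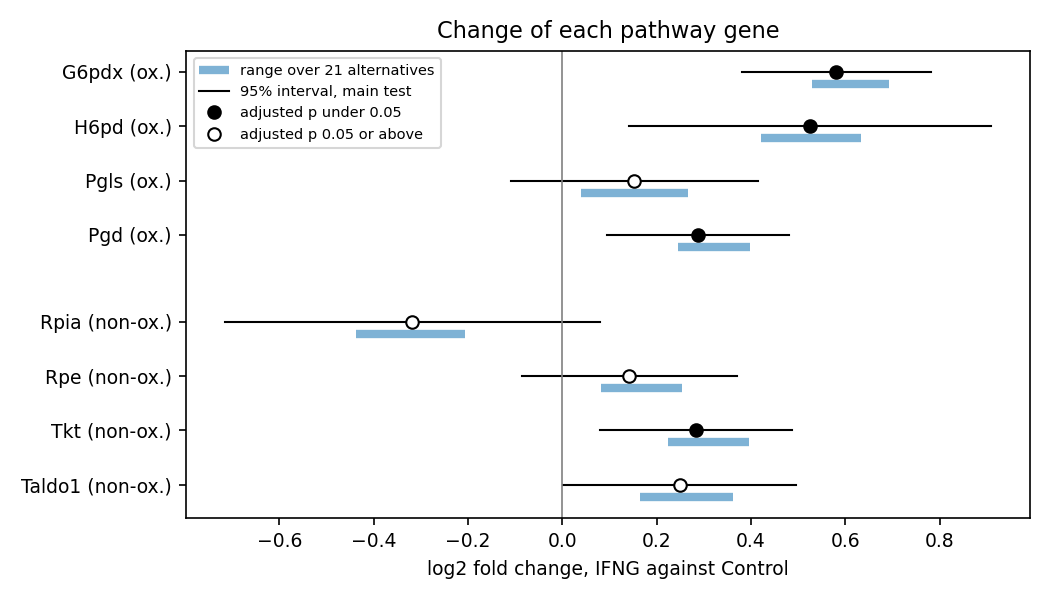
Log2 fold change of each pathway gene, IFNG against Control (x axis), with the 95% interval of the main test (black line) and the range over 21 alternatives (blue bar); filled points passed the test. The interval of G6pdx lies farthest from 0, and Rpia is the only member with a negative estimate.

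In the non-oxidative branch neither gene of the enzymes that convert ribulose 5-phosphate passed the test. Rpia encodes the isomerase that makes ribose 5-phosphate, the precursor of nucleotides. Its levels were 8.08, 8.95 and 11.8 CPM in Control and 5.10, 7.35 and 10.7 CPM in IFNG libraries (lowest, median, highest). The groups overlapped widely, and 3 IFNG libraries (2, 4 and 6) lay below all Control libraries. The log2 fold change was -0.32 ± 0.19 (adjusted p = 0.246, edgeR), with a 95% interval of 0.609 to 1.06-fold, and it was negative in all 21 alternatives (-0.44 to -0.21). Rpia (ENSMUSG00000053604) spans 70765720 to 70792232 on the minus strand of chromosome 6. Rpe encodes the epimerase that makes xylulose 5-phosphate, the other pentose that transketolase needs. It ran from 17.4 to 25.1 CPM in Control (median 21.6) and from 22.5 to 26.2 CPM in IFNG libraries (median 24.1). Here 4 of 6 Control libraries were below the lowest IFNG library. The log2 fold change of 0.14 ± 0.11 did not pass (adjusted p = 0.380, edgeR), with an interval of 0.942 to 1.29-fold. Rpe (ENSMUSG00000026005) lies on the plus strand of chromosome 1 from 66700831 to 66719805. It shares 558 exon bases, 17.9% of its exon length, with Kansl1l on the opposite strand, which itself rose (log2 fold change 0.43 ± 0.15, adjusted p = 0.0384, edgeR).

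The carbon-shuffling enzymes were the most abundant members. Tkt encodes transketolase, the thiamine-dependent enzyme that moves carbon units between sugar phosphates. It stood at 180, 211 and 228 CPM in Control, against 210, 247 and 308 CPM in IFNG libraries (lowest, median, highest). In 5 of 6 IFNG libraries it was above every Control library, with IFNG 4 low and IFNG 5 high. Tkt rose by 0.28 ± 0.097 on the log2 scale, or 1.22-fold, from 205 ± 20.4 to 250 ± 32.7 CPM (SD, n = 6 each; adjusted p = 0.0400, edgeR). The call was lost without any 1 of Control 2, Control 5, IFNG 1, IFNG 2, IFNG 5 or IFNG 6 (adjusted p from 0.0561 to 0.0996, log2 fold changes from 0.23 to 0.29) and on library totals without a composition factor (0.24, adjusted p = 0.0786). Tkt was also not called with the replicate number as a block (0.28, adjusted p = 0.0691, edgeR) or without Control 4 and IFNG 5 together (0.23, adjusted p = 0.0641, edgeR). Tkt (ENSMUSG00000021957) lies on the plus strand of chromosome 14 from 30548359 to 30574720.

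Taldo1 encodes transaldolase, which works beside transketolase to return carbon to glycolysis. Its Control libraries held 57.0 to 80.2 CPM (median 71.6) and its IFNG libraries 64.1 to 109.7 CPM (median 83.4). The groups overlapped, with IFNG 4 and IFNG 1 inside the Control range and 4 IFNG libraries above it. The log2 fold change of 0.25 ± 0.12 did not pass (adjusted p = 0.139, edgeR), with an unadjusted 95% interval of 1.002 to 1.41-fold. On totals that leave out the genes called higher it was 0.36 (adjusted p = 0.0317), a scaling that moves the median of all genes from -0.02 to 0.10. The genes left out are those of the main test on these same data, so that pass is not separate evidence for Taldo1. Taldo1 (ENSMUSG00000025503) lies on the plus strand of chromosome 7 from 141392199 to 141402968.

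Compared per exon length, as length-normalised abundance (TPM) from the union of annotated exons, the levels of the 8 genes differed widely. In Control libraries the order was Taldo1 at 126 ± 14.5, Tkt at 109 ± 12.9, Pgd at 40.9 ± 6.05, G6pdx at 33.3 ± 2.89, Pgls at 33.2 ± 2.12, Rpe at 27.5 ± 3.60, H6pd at 7.66 ± 2.52 and Rpia at 6.87 ± 1.08 TPM (SD, n = 6). The exon unions used were 2171 bases for Taldo1, 7355 for Tkt, 6447 for Pgd and 3080 for G6pdx. Without division by length, Control means were 205 CPM for Tkt against 70.0 CPM for Taldo1, and 67.3 for Pgd against 26.3 for G6pdx. Taldo1 above Tkt, and G6pdx level with Pgd in IFNG libraries, therefore depend on these lengths. Which exons the cultures used was not tested. Some neighbours in this TPM order did not differ beyond their spread. G6pdx was above Pgls in 3 of 6 Control libraries, H6pd above Rpia in 3 of 6, and Taldo1 above Tkt in 5 of 6. In IFNG libraries G6pdx reached 46.8 ± 3.12 TPM beside Pgd at 46.7 ± 3.26 TPM, and H6pd at 10.2 ± 1.62 TPM was above Rpia at 5.19 ± 1.68 TPM in 6 of 6 libraries. The steps from Tkt down to the next gene and from Rpe down to H6pd held in every library of both groups.

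**Figure D3:**
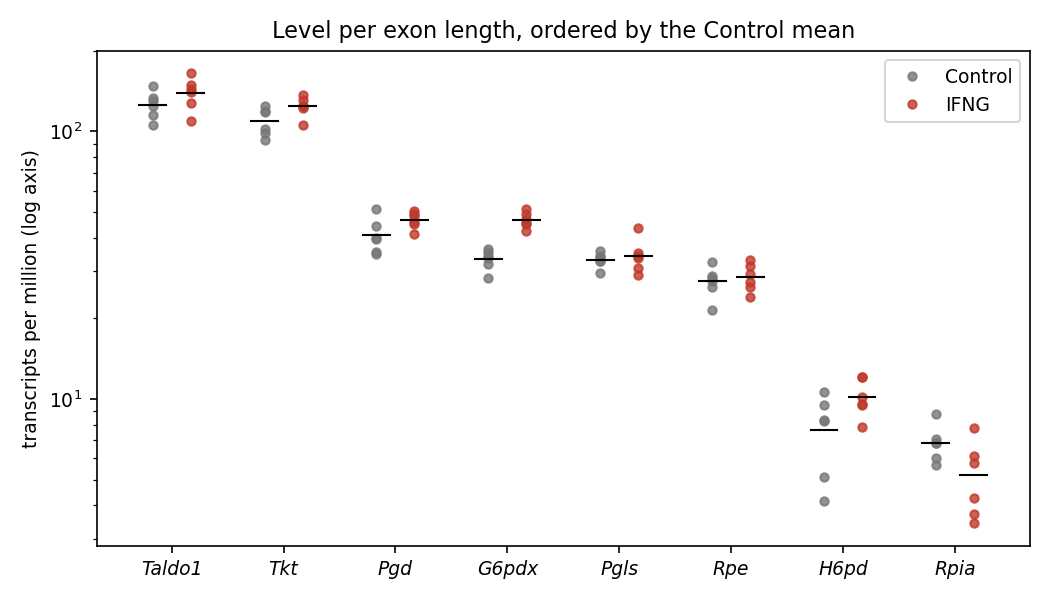
TPM of each member on a log axis in Control (grey) and IFNG (red) libraries, with group means as black lines, ordered by the Control mean. Taldo1 and Tkt lie between 92.6 and 165 TPM, Pgd, G6pdx, Pgls and Rpe between 21.5 and 51.2 TPM, and H6pd and Rpia between 3.43 and 12.1 TPM.

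The branches were compared as means of log2 CPM over their members, as a description without a test. The oxidative mean was 4.77 ± 0.11 in Control and 5.16 ± 0.11 in IFNG (SD, n = 6 each), and all IFNG libraries (5.02 to 5.30) lay above all Control libraries (4.62 to 4.89). The non-oxidative mean was 5.37 ± 0.087 in Control and 5.45 ± 0.18 in IFNG libraries, and its ranges overlapped (5.30 to 5.52 and 5.20 to 5.71). The changes were thus 0.39 and 0.08, and their difference was 0.31. The non-oxidative change was 0.04 without IFNG 5, 0.05 without Control 4 and IFNG 5 together, 0.13 without IFNG 4 and 0.12 without Control 6. It was 0.04 on library totals without a composition factor and 0.19 on totals that leave out the genes called higher. The difference between branches was 0.28 to 0.35 when libraries were left out. It is taken within each library, so other scalings, filters and the replicate block leave it at 0.31 by construction. It was not computed for the DESeq2 and limma-voom tests. The difference between branches holds for equal weights of the members. G6pdx (log2 fold change 0.58) and H6pd (0.53) raised the oxidative mean, and Rpia (-0.32, not called) lowered the non-oxidative mean. H6pd and Rpia had the fewest counts. The remaining members were alike in both branches: Pgls 0.15 and Pgd 0.29, against Rpe 0.14, Taldo1 0.25 and Tkt 0.28. In summed CPM, where Tkt and Taldo1 weigh most, the oxidative genes went from 136 ± 8.44 to 172 ± 14.3 CPM and the non-oxidative genes from 307 ± 23.0 to 365 ± 47.9 CPM (SD, n = 6 each). The highest Control library, replicate 6, held 151.7 and the lowest IFNG library, replicate 4, 152.9 oxidative CPM. On library totals without a composition factor these sums overlapped (128.8 to 154.3 against 149.98 to 189.3 CPM), while the oxidative mean log2 CPM remained apart (4.62 to 4.91 against 4.98 to 5.26).

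Values taken within a library do not depend on scaling between libraries. The oxidative genes made up 30.7 ± 1.18% of the pathway's counts in Control and 32.1 ± 1.12% in IFNG (SD, n = 6 each), with overlapping ranges of 29.5 to 32.6% and 30.1 to 33.4%. The ratio of Pgd to G6pdx, in TPM, was 1.23 ± 0.16 in Control and 0.999 ± 0.054 in IFNG libraries. It ran from 1.04 to 1.44 in Control and from 0.921 to 1.07 in IFNG libraries, so that only Control 4 reached the IFNG range. Control 6 and Control 2 had the highest ratios, 1.44 and 1.41, and are flagged below for high Pgd and low G6pdx. The rest of the Control libraries held 1.04 to 1.22. The ratio of Taldo1 to Tkt was 1.16 ± 0.16 and 1.12 ± 0.094, a difference smaller than the spread within either group. The share of Tkt in the pathway's TPM was likewise close, at 28.4 ± 2.12% and 28.5 ± 0.80%. The ratio of G6pdx to H6pd, the cytosolic against the reticular enzyme, was 4.86 ± 1.95 and 4.68 ± 0.83, with Control 4 at 8.11.

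**Figure D4:**
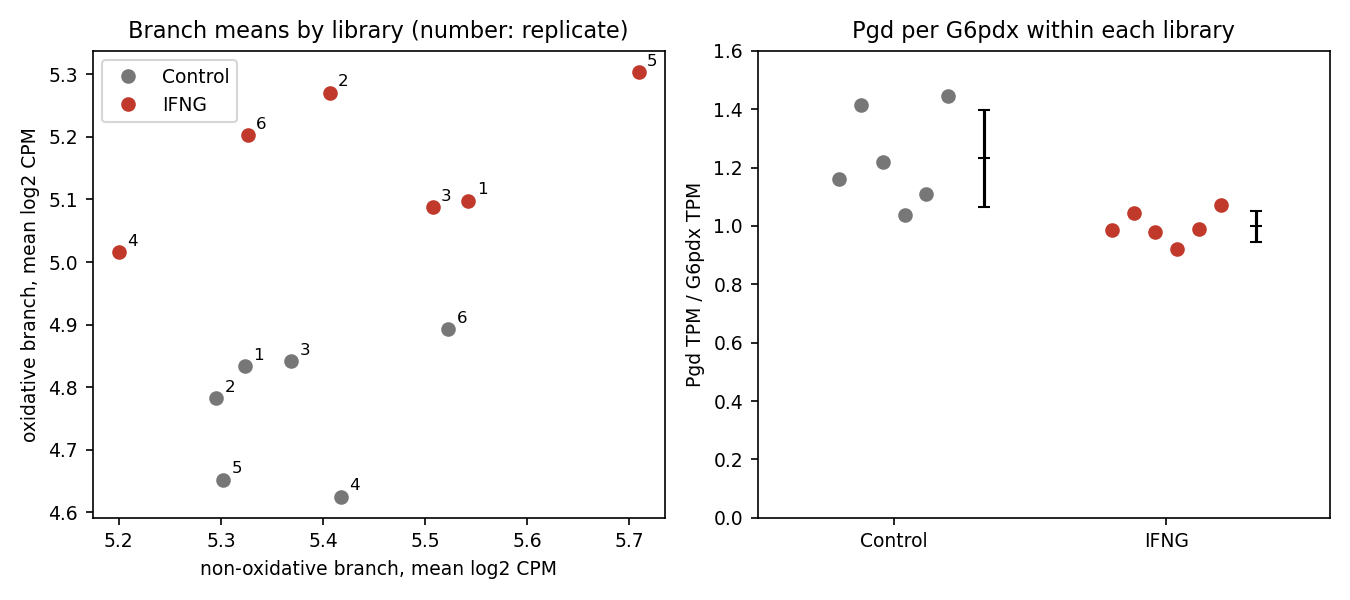
Left, mean log2 CPM of the oxidative (y) against the non-oxidative branch (x) in each library, numbered by replicate; right, Pgd TPM divided by G6pdx TPM in each library with mean and SD. All IFNG libraries lie above all Control libraries on the oxidative axis (5.02 to 5.30 against 4.62 to 4.89) and overlap on the other, and the ratio is 0.921 to 1.07 in IFNG and 1.04 to 1.44 in Control libraries.

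Within groups the members did not vary as 1 unit. After subtraction of group means, Pearson's r of log2 CPM over the 12 libraries, which share depth and scaling, ran from -0.41 to 0.44 for the 6 pairs of oxidative members. It ran from -0.56 to 0.69 for the 6 non-oxidative pairs and from -0.42 to 0.70 for the 16 pairs across branches. The highest values were for Pgls with Taldo1 (0.70), Tkt with Taldo1 (0.69) and G6pdx with Tkt (0.66). Rpe was below 0 with all 7 other members, at its lowest with Tkt (-0.56). IFNG 5 had the highest mean deviation over the members (0.20) and IFNG 4 the lowest (-0.20). Among 10600 other genes whose mean log2 CPM was 3 or more, those whose group-centred pattern was most like the oxidative mean were Map2k2 (r = 0.98), Pmm1 (0.97) and Tcf3 (0.97). For the non-oxidative mean they were Hars (0.91), Hspbp1 (0.90) and Armc6 (0.90). These are the extremes of a search through many genes over 12 libraries and are given as a description.

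The pathway's paralogs and its entry and exit enzymes were read from a list of 17 genes, of which 15 could be tested, 4 rose and 1 fell (median log2 fold change 0.36). Over all tested genes 14.3% rose and 9.79% fell, with a median of -0.02. Gpi1, whose enzyme competes for glucose 6-phosphate by sending it down glycolysis, rose by 0.38 ± 0.091, Pgm1, which links it to glycogen, by 0.38 ± 0.10, and Hk1, the hexokinase that makes it, by 0.26 ± 0.082. Of the synthetases that turn ribose 5-phosphate into the nucleotide precursor PRPP, Prps2 rose by 0.41 ± 0.12 while Prps1 fell by 0.31 on the log2 scale (adjusted p = 0.0179 and 0.0330, edgeR). The transketolase-like gene Tktl1 was too low to be tested, at 60 and 42 counts over the Control and IFNG libraries. Among the members not called, G6pc3, a glucose 6-phosphatase, was the most abundant, at 42.8 ± 4.87 CPM in Control against 49.0 ± 8.15 CPM in IFNG (SD, n = 6 each; adjusted p = 0.233, edgeR).

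Of 13 genes listed as other sources of NADPH 7 rose and 1 fell, with a median of 0.36 (all tested genes: 14.3% and 9.79%). The largest rise was that of Aldh1l1, a folate enzyme that also stands in the astrocyte list (1.56 ± 0.10), followed by Nnt, the mitochondrial transhydrogenase (1.03 ± 0.13), and Glud1, glutamate dehydrogenase (0.84 ± 0.087). Me3, Mthfd1, Idh2 and Nadk2 rose by 0.36 to 0.61. Aldh1l2, the mitochondrial counterpart of Aldh1l1, fell by 1.07 on the log2 scale. Me1, the cytosolic malic enzyme and the most abundant gene of the list not called, stood at 112 ± 13.8 CPM in Control against 115 ± 8.64 CPM in IFNG (SD, n = 6 each; adjusted p = 0.845, edgeR).

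On the side of NADPH use, 4 of 16 listed antioxidant genes rose and none fell (median 0.18), beside 14.3% and 9.79% of all tested genes. Txnrd1, the thioredoxin reductase that spends NADPH directly, rose by 0.47 ± 0.10 and the carbonyl reductase gene Cbr3 by 0.68 ± 0.19. Gpx1 (1.86 ± 0.13) and Prdx1 (0.73 ± 0.13) also rose; their enzymes draw on glutathione and thioredoxin, which NADPH keeps reduced. Gsr, the glutathione reductase, did not pass at a log2 difference of 0.14 ± 0.11 (adjusted p = 0.380, edgeR). Prdx2, the most abundant gene of the list not called, averaged 203 ± 18.0 CPM in Control against 199 ± 30.7 CPM in IFNG (SD, n = 6 each). Of 15 genes of NADPH oxidases and nitric oxide synthases only 4 could be tested. Cyba, the small membrane subunit of the oxidases, rose by 1.95 ± 0.52 from 0.803 ± 0.659 CPM, and Nos2 had 1 count in each group of 6 libraries. Nos1, the neuronal synthase, averaged 50.3 ± 12.5 CPM in Control against 41.7 ± 8.29 CPM in IFNG (adjusted p = 0.243, edgeR). Of 13 lipid synthesis genes 2 rose and none fell (median -0.09), a share of rises close to the 14.3% of all tested genes. These were Fads2 (0.50 ± 0.087) and Fads1 (0.35 ± 0.097), desaturases that take their electrons chiefly from NADH. Fasn, the fatty acid synthase and a large user of NADPH, stood at 524 ± 81.1 CPM in Control against 586 ± 61.6 CPM in IFNG (SD, n = 6 each; adjusted p = 0.304, edgeR).

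Of 15 listed regulators of the pathway 8 rose and 1 fell (median 0.35), where 14.3% of all tested genes rose and 9.79% fell. Nfe2l2, the gene of NRF2, rose by 1.47 ± 0.13 and that of its inhibitor, Keap1, by 0.39 ± 0.10. Srebf1, of lipid synthesis, rose by 1.77 ± 0.21 and Pfkfb3, which favours glycolysis over the pathway, by 0.68 ± 0.087 (adjusted p = 1.77e-06 and 5.60e-06, edgeR). Trp53, whose protein can bind and inhibit glucose-6-phosphate dehydrogenase, rose by 0.47 ± 0.12. Atm, Mlxipl and Sirt2 rose as well, by 1.01, 1.69 and 0.31, and Myc fell by 0.35 on the log2 scale. Tigar, which lowers glycolytic flux in favour of the pathway, stood at 22.9 ± 3.09 CPM in Control against 19.2 ± 4.08 CPM in IFNG (SD, n = 6 each; adjusted p = 0.215, edgeR). Mtor, the regulator not called with the highest mean over both groups, averaged 121 ± 15.5 CPM in Control against 128 ± 13.0 CPM in IFNG. The rises of these lists occurred in libraries whose 16 tested astrocyte markers all rose, by a median of 1.08, and the part of that shift was not tested.

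**Figure D5:**
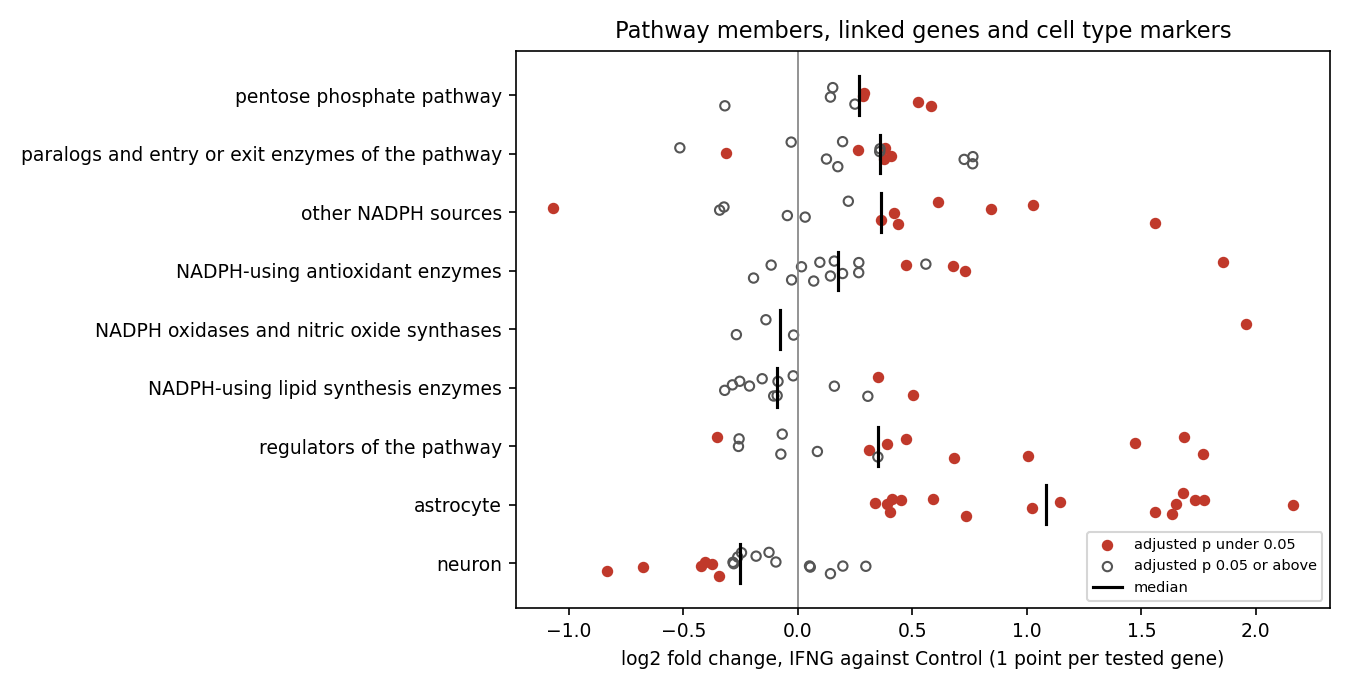
Log2 fold change of each tested gene (points) in the pathway, in 6 lists of linked genes and in the astrocyte and neuronal marker lists, with list medians as black lines and genes past the test in red. The pathway's points lie between -0.32 (Rpia) and 0.58 (G6pdx), and all 16 astrocyte markers lie to the right of 0.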

How the data were processed

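The deposited values are raw counts, whole numbers per Ensembl gene with a column for every library. Per the submitters' processing notes, STAR 2.4 and DESeq2 were used and the builds GRCm39 and mm10 are named, with no role given. No source used here gives the counter, its strand setting or the annotation. Symbols, coordinates and exon lengths came from GENCODE M21 (GRCm38), which matched 42548 of 43629 identifiers. The other identifiers held 0.1001 to 0.113% of a library's counts and remained in the tests.

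IFNG was compared with Control across all genes in R 4.3.3 with edgeR 4.0.16, using filterByExpr, TMM scaling, quasi-likelihood F-tests (two-sided), no block, and Benjamini-Hochberg adjustment over 15241 genes at 0.05. The SE was taken as the size of the log2 fold change over the root of F. Intervals of folds are 95% and unadjusted. CPM uses TMM-scaled totals, and log2 CPM a prior count of 2. TPM divides counts by the union of annotated exons, which understates genes with long unused exons. The test was checked on simulated counts with few changed genes, as many raised as lowered. In these data many genes changed and more rose than fell, so that check does not cover how calls depend on scaling.

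The members, the 6 lists of linked genes, the 7 marker lists and the alternatives were chosen with earlier results of these data known. All 8 members are named. From each linked list up to 3 called genes of smallest p, and the most abundant uncalled gene, were to be named; further genes were chosen after their values were seen. Promoters are RefSeq windows of GRCm38.p6. A further motif searched in them is not reported here. No pair of libraries of a group agreed within sampling noise (chi-square per gene at least 7.40). Whether replicates are biological is not stated, so p-values reflect only how these libraries vary, which could be technical variation.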

Additional observations from a re-analysis of the deposited data

Results flagged for a closer look

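Within groups of 6 libraries, 22 sets of values (11 measures in each group) were searched for a library whose gap to its nearest neighbour was large against the group's range, by Dixon's 95% critical value of 0.625. It was exceeded in 4 sets, and chance exceeds it in about 1 of 20. G6pdx was low in Control 2, at 21.6 CPM against 26.2 to 28.3 CPM in the other Control libraries. Pgls was high in IFNG 5, at 50.1 CPM against 29.5 to 35.7 CPM in the other IFNG libraries. Pgd was high in Control 6, at 82.5 CPM against 61.0 to 68.9 CPM, and so was the oxidative sum to which it contributes, at 151.7 CPM against 128.6 to 136.9 CPM. The Pgd value and that sum are not separate observations.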

How the results depend on the processing

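There were 21 alternatives, 12 of which left out 1 library. G6pdx was called in all 21, H6pd in 12, Pgd in 15, Tkt in 12 and Taldo1 in 1, while Pgls, Rpia and Rpe were called in none, and no member changed direction. The count of members called higher was 4 in the main test. It was 1 on library totals without a composition factor, 2 without Control 4 and IFNG 5 together, and 1 to 4 when 1 library was left out (1 without Control 5 or IFNG 2). It was 5 on totals that leave out the genes called higher, where genes lower in IFNG numbered 750 and genes higher 2961, or 79.8% of calls against 59.4% in the main test. On library totals without a composition factor 51.3% of calls were higher. DESeq2 1.42.0, limma-voom (limma 3.58.1), DESeq2 size factors and both other filters each called G6pdx, H6pd, Pgd and Tkt. With the replicate number as a block 3 members were called, and Tkt was not (0.28, adjusted p = 0.0691). Same-numbered libraries deviated together with r of -0.05 to 0.24 over genes, above 0.1 in 3 of 6 pairs, and 2 of 12 libraries correlated best with their own number, so the numbers were not taken to pair samples. The cause of these changes was not tested. The members with the fewest counts were Rpia, at 73 to 243 per library, and H6pd, at 105 to 585, where counting error is largest.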
